A study of Homo sapiens with 5 samples.

Results

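In all, 10 genes of chemokines and inflammatory cytokines were followed through a mixture series of messenger RNA from a pair of human lung adenocarcinoma cell lines. They were CXCL1, CXCL2, CXCL3, CXCL5, CXCL8, CXCL16, CCL20, IL6, IL1A and IL1B, 10 of the 61220 genes to which a counted transcript could be assigned. They were chosen by name, with earlier results of these data known. Every transcript that the GENCODE v44 annotation assigns to one of these genes was taken, and its reads were summed per gene. The lines were NCI-H1975 and HCC827, established epithelial tumour lines, grown near confluency in serum-containing RPMI medium and with no stimulus named in the labels. By the labels, poly(A) RNA of NCI-H1975 with sequins of mix A (synthetic spike-in transcripts) was combined by mass with that of HCC827 with sequins of mix B. The blends were sequenced as PCR-amplified cDNA on a nanopore PromethION flow cell. HCC827 RNA made up 0, 25, 50, 75 and 100% of the mass. Of the 5 libraries, the pure ones are called 100:0 (NCI-H1975) and 0:100 (HCC827) and the 3 blends 75:25, 50:50 and 25:75, with the NCI-H1975 percentage first; values per library are given in order of rising HCC827 share.

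Each ratio had 1 library and each line 1 RNA preparation. Values below therefore describe these preparations, and differences between cultures were not measured. The p-values measure scatter about a straight line in log2 within 1 dilution series. In bulk RNA of this kind, fewer expressing cells and less RNA per cell cannot be told apart.

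Chemokines are small secreted proteins that direct the migration of leukocytes. CXCL1, CXCL2, CXCL3, CXCL5 and CXCL8 carry an ELR motif and attract neutrophils through CXCR2, and CXCL8 also through CXCR1. Interleukin-1 and interleukin-6 are inflammatory cytokines. In airway epithelium and in many carcinomas the transcription factor NF-kB drives many of these genes together after stimulation.

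All the CXC members but CXCL16 lay in one stretch of chromosome 4, and CXCL1, CXCL2, CXCL3 and CXCL5 carried the same 11 letters shortly before their start sites. Promoter sequences were taken from RefSeq (GRCh38.p14), in which 9 of the 10 genes had an entry, with CXCL16 the exception. The 130 bases before the start are shown for the 5 genes of the chromosome 4 cluster, 5′ to 3′ on the strand of the gene, since they show how alike the CXCL1, CXCL2 and CXCL3 promoters are and how CXCL5 and CXCL8 depart from them. Capitals mark matches to the NF-kB (kappaB) consensus or to GGAATTTCC, the core that the 5 share. The windows are chr4:73869263-73869392 (plus strand) for CXCL1, chr4:74099196-74099325 (minus) for CXCL2, chr4:74038690-74038819 (minus) for CXCL3, chr4:73998678-73998807 (minus) for CXCL5 and chr4:73740439-73740568 (plus) for CXCL8.
CXCL1: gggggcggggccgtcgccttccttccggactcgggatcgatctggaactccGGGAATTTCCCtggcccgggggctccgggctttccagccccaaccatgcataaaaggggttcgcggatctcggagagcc
CXCL2: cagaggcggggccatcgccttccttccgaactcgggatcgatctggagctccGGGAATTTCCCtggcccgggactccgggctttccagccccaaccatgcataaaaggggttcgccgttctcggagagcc
CXCL3: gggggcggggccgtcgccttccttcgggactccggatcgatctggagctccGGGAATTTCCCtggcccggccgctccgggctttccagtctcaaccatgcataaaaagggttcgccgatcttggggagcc
CXCL5: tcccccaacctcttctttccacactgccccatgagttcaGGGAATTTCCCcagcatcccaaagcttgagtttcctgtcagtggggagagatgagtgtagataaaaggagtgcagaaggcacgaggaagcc
CXCL8: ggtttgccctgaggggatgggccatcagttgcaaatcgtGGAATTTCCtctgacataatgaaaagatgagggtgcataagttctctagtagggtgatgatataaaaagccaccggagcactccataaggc

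Over these 130 bases, CXCL1 was 93.1% identical to CXCL2 and 91.5% to CXCL3, and CXCL2 was 88.5% identical to CXCL3. CXCL5 was 54.6 to 56.9% identical to those 3, and CXCL8 49.2 to 56.2% to the other 4. The match began 79 bases before the start in CXCL1 and CXCL3, 78 in CXCL2, and 91 in CXCL5 and CXCL8. Searched on both strands in the 250 bases before each start, the kappaB consensus was present in 6 of the 9 promoters (CXCL1, CXCL2, CXCL3, CXCL5, CCL20 and IL6) and in 9.96% of 35116 RefSeq promoters of the same length. The letters GGAATTTCC, which overlap that consensus, were present in 5 of 9 and in 0.413% of all. That core was defined above as what these 5 share, so its count among the 9 followed from the definition. The CXCL1, CXCL2 and CXCL3 promoters are alike, so their matches to either motif are not independent. The IL6 match read GGGATTTTCC, 73 to 64 bases before the start, and the CCL20 match read GGAAAACCCC on the opposite strand, 79 to 70 bases before it. TGANTCA, an AP-1 motif, was present before CXCL8 and IL1A (2 of 9, against 6.57% of all), and TATAAA before CXCL8, CCL20 and IL1A (3 of 9, against 10.7%). None of these motifs was matched in the IL1B window. A match is a run of letters and says nothing of whether a factor was bound in these cells.

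The libraries held 2932250 to 4058751 assigned reads, and a count of 0 allows up to 3 reads, which is 0.705 CPM in 75:25 to 1.13 CPM in 0:100 (reads scaled to a library of 1000000, here after the TMM scaling given below). Mitochondrial transcripts went from 5.64% of reads in 100:0 to 8.85% in 0:100, and the mean length of the transcripts to which reads were assigned from 2579 to 2180 bases, with the mixed libraries in order between; the part of either in the results below was not tested. Sequin reads numbered 5475, 4678, 2830, 1269 and 0 from 100:0 to 0:100, falling with the NCI-H1975 share. The 0:100 library thus listed 0 sequin reads, although its label names mix B. Of 6 epithelial markers, EPCAM, KRT7, KRT8, KRT18, KRT19 and NKX2-1 each held at least 140 reads in every library, and all but EPCAM rose towards HCC827 (EPCAM fell with library totals). Of 13 markers of leukocytes, fibroblasts and endothelium, PTPRC, LYZ, CD3E, MS4A1 and DCN were at 0 in all 5 libraries, and 4 could be tested, of which 1 rose (CD68) and 1 fell (COL1A1); 1 rose and 3 fell with library totals, and 1 and 2 with limma-voom. Their summed level was 227, 197, 177, 160 and 106 CPM from 100:0 to 0:100, of which COL1A1 made up 532 reads in 100:0 and 19 in 0:100, and its part in the results was not tested.

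Levels are given as CPM after TMM scaling, a correction for differences in RNA composition between libraries. Trends were tested with the edgeR quasi-likelihood test on the HCC827 mass fraction. The slope is the modelled log2 difference between pure HCC827 and pure NCI-H1975 RNA along a straight line. It is given ± SE with its 95% interval, and its p-value was adjusted by the Benjamini-Hochberg method over the 13492 genes tested. A blend is linear in expression and not in log2, so a steep gene leaves that line even in a perfect blend. Its SE and p-value then carry that misfit, and its slope can fall short of the log2 ratio of the pure libraries. A perfect blend is steepest in log2 next to the pure library with less of the RNA, and leaving that library out shrinks the slope. Ratios between the pure libraries carry an exact 95% interval for counting error, which does not cover PCR copies, since reads had no molecular identifiers.

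CXCL5, CXCL16, CXCL8 and IL1B rose with the HCC827 share at an adjusted p under 0.05. CXCL1, CXCL2, CXCL3 and IL6 were tested and did not pass, CCL20 and IL1A had too few reads to be tested, and 0 fell by edgeR, DESeq2 or limma-voom, or by edgeR at an unadjusted p under 0.05. Of all genes tested, 45.7% passed in either direction, so 4 of 8 is near the background. Of all genes, 23.5% rose and 22.3% fell, and these shares are the background for each list of genes below. The median slope of the 8 members was 0.93, against -0.03 over all genes. With library totals in place of TMM the median slope of all genes shifted to -0.45 and the share of risers among the calls moved from 51.3% to 26.0%. On that scaling the slopes of CXCL8 and IL1B no longer passed, that of IL6 changed sign, and CXCL5 and CXCL16 alone of the members still passed. Pure HCC827 RNA held at least 4 times the level of NCI-H1975 for 2 of the 8, CXCL5 and CXCL16, with the lower library set to at least 3 reads (4.97% of all genes). Of the 8, 3 (CXCL5, CXCL8 and IL1B) ran in order over the 5 libraries, against 28.5% of all genes.

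**Figure D1:**
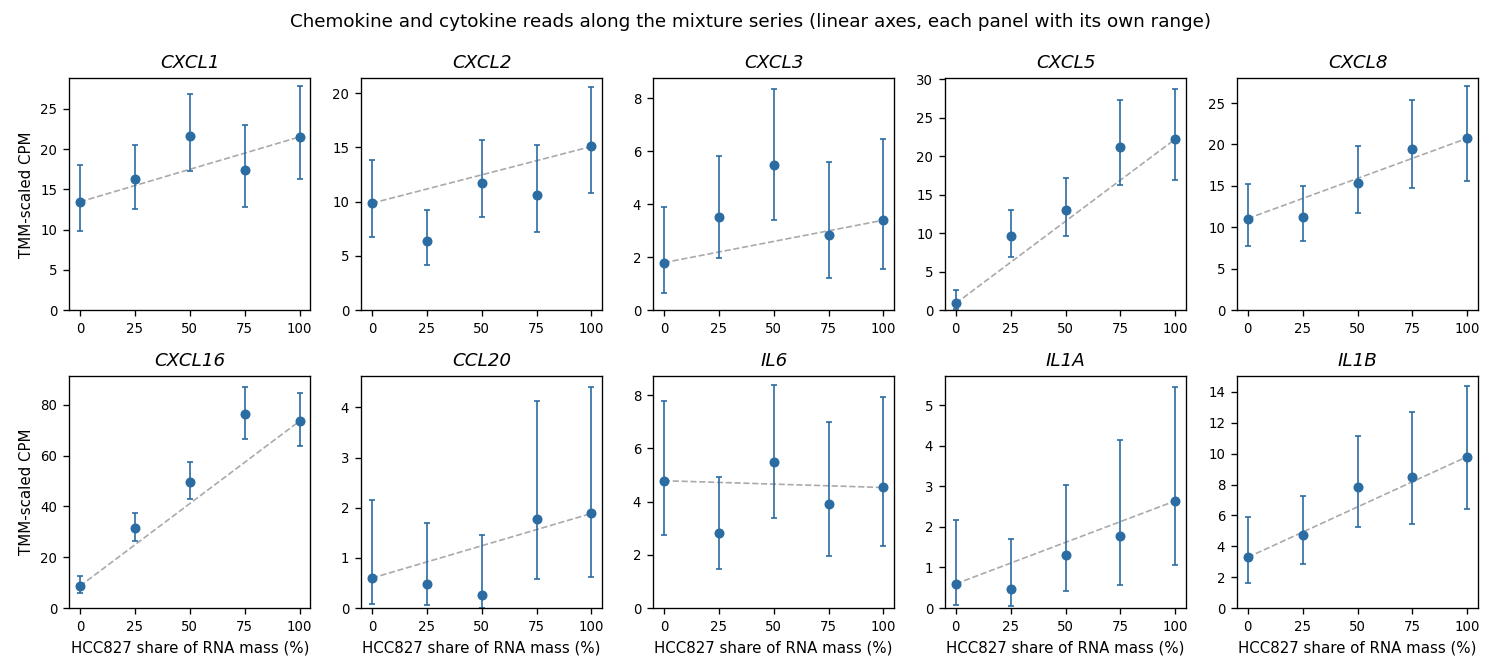
TMM-scaled CPM of each of the 10 genes (vertical axis, linear) against the HCC827 share of RNA mass in percent (horizontal axis), 1 library per point, with exact Poisson 95% intervals for counting error; dashed lines join the pure libraries, which is where a linear mixture would lie. CXCL5 starts at 0.897 CPM and ends at 22.3, CXCL16 lies above its line in all 3 mixed libraries, and IL6 stays between 2.82 and 5.47.

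CXCL5 (ENSG00000163735.7, chr4:73995642-73998677, minus strand), a neutrophil attractant of epithelial cells, was close to absent from NCI-H1975 RNA. It had 3, 41, 50, 60 and 59 reads from 100:0 to 0:100, or 0.897, 9.64, 13.02, 21.3 and 22.3 CPM. The pure NCI-H1975 library stood apart, and each of the mixed libraries was above it by more than the counting intervals. The ratio of pure HCC827 to pure NCI-H1975 was 24.8 (8.09 to 124), and the slope was 2.68 ± 0.55 (1.50 to 3.86, edgeR adjusted p = 0.00151). Without the 100:0 library the slope was 1.71 and still passed, and a perfect blend would also give a smaller log2 slope there. All CXCL5 reads were assigned to CXCL5-201, a coding transcript with 4 exons and 2436 bases. A lncRNA on the opposite strand that overlaps CXCL5 had 2 reads in all.

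CXCL8 (interleukin-8, ENSG00000169429.12, chr4:73740519-73743716, plus strand), a CXC ligand of both neutrophil receptors, was present in both lines and rose modestly. It had 37, 48, 59, 55 and 55 reads, or 11.1, 11.3, 15.4, 19.5 and 20.8 CPM. The 100:0 and 75:25 libraries were low, 50:50 was between, and the HCC827-rich pair was high. The ratio was 1.88 (1.21 to 2.93) and the slope 1.05 ± 0.28 (0.44 to 1.66, edgeR adjusted p = 0.00835). With library totals the slope was 0.64 (edgeR adjusted p = 0.0736). CXCL8-201 took 253 of the 254 reads.

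CXCL1, CXCL2 and CXCL3, the GRO chemokines, were detected in every library, and none of them passed the test on its own. Their main transcripts are alike (89.4% identity between CXCL1 and CXCL2, 77.9% between CXCL1 and CXCL3, 78.5% between CXCL2 and CXCL3), and how reads that fit several were divided was not stated, so their separate values are uncertain. CXCL1 (ENSG00000163739.5, chr4:73869393-73871308, plus strand) had 45, 69, 83, 49 and 57 reads, or 13.5, 16.2, 21.6, 17.4 and 21.5 CPM. It was lowest in pure NCI-H1975, and 50:50 and pure HCC827 were level with each other. Its slope was 0.57 ± 0.28 (-0.04 to 1.19, edgeR adjusted p = 0.117), and the ratio of the pure libraries was 1.60 (1.06 to 2.42).

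CXCL2 (ENSG00000081041.9, chr4:74097040-74099196, minus strand) had 33, 27, 45, 30 and 40 reads, or 9.87, 6.35, 11.7, 10.6 and 15.1 CPM. The 75:25 library was the low one, under both pure libraries. Its slope was 0.80 ± 0.39 (-0.05 to 1.65, edgeR adjusted p = 0.114), and without the 100:0 library it was 1.39 and passed (edgeR adjusted p = 0.0322). CXCL3 (ENSG00000163734.4, chr4:74036589-74038807, minus strand) had the fewest reads of the 3, with 6, 15, 21, 8 and 9, or 1.79, 3.53, 5.47, 2.84 and 3.40 CPM. It peaked in the 50:50 library, and the pure libraries overlapped in their counting error. Its slope was 0.48 ± 0.71 (-1.06 to 2.02, edgeR adjusted p = 0.607), and without the 100:0 library it turned to -0.40.

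Because reads may pass between these 3 genes, they were also summed into 1 feature. The sum held 84, 111, 149, 87 and 106 reads, or 25.1, 26.1, 38.8, 30.9 and 40.0 CPM. The NCI-H1975-rich pair was low and the other libraries were higher, with no even rise. The slope of the sum was 0.64 ± 0.24 (0.13 to 1.16, edgeR adjusted p = 0.0423). With library totals it was 0.23 (edgeR adjusted p = 0.445), and the slopes of CXCL1, CXCL2 and CXCL3 were 0.16, 0.39 and 0.07. In alternatives chosen after seeing the data, the sum also lost its call with the DESeq2 test (0.66, adjusted p = 0.102) and without 100:0 (0.61, edgeR adjusted p = 0.132), 75:25 (0.55, edgeR adjusted p = 0.128) or 0:100 (0.63, edgeR adjusted p = 0.183).

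In chromosomal order the cluster runs CXCL8, CXCL6, PF4V1, CXCL1, PF4, PPBP, CXCL5, CXCL3 and CXCL2. CXCL5 lies 7.5 kb from PPBP, the platelet basic protein gene, which had 0 reads in every library, as did PF4 (platelet factor 4). CXCL3 begins 37.9 kb beyond CXCL5 and CXCL2 another 58.2 kb on. CXCL6, a further ELR chemokine, had 11, 15, 19, 13 and 6 reads and a slope of -0.09 ± 0.64 (edgeR adjusted p = 0.922).

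**Figure D2:**
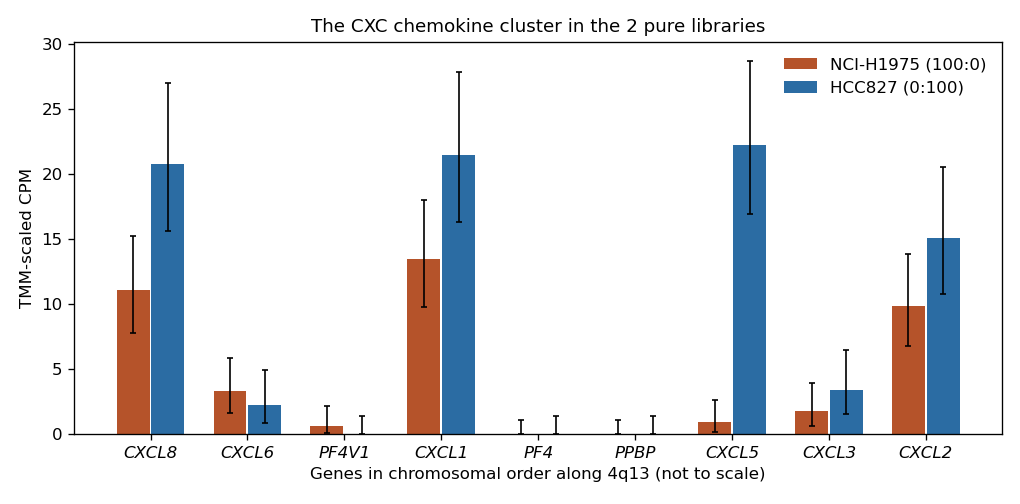
TMM-scaled CPM (vertical axis, from 0) of the 9 genes of the chromosome 4 chemokine cluster in chromosomal order (horizontal axis, not to scale), in the pure NCI-H1975 library (orange) and the pure HCC827 library (blue), with exact Poisson 95% intervals. CXCL5 reads 0.897 and 22.3 CPM, while CXCL8, CXCL1 and CXCL2 are at 9.87 CPM or more in both lines and PF4 and PPBP are at 0.

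CXCL16 (ENSG00000161921.17, chr17:4733533-4739928, minus strand) is made as a membrane protein whose chemokine part, once cut off by ADAM10 or ADAM17, attracts T cells that carry CXCR6. It was the member with most reads and rose steeply. It had 29, 134, 191, 215 and 195 reads, or 8.67, 31.5, 49.7, 76.3 and 73.6 CPM. Pure NCI-H1975 was far below the others, and 25:75 and pure HCC827 were the highest, level with each other within counting error. The ratio was 8.49 (5.73 to 13.01) and the slope 2.49 ± 0.38 (1.66 to 3.31, edgeR adjusted p = 2.01e-04). MED11 (434 reads) and ZMYND15 (19 reads) lie on the opposite strand and overlap CXCL16 by 76 and 96 bases, and whether counting used strand was not stated.

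CXCL16 reads fell on more than 1 coding transcript. CXCL16-201, with 6 exons, had 25, 117, 170, 173 and 156 reads. The shorter CXCL16-203, with 5 exons, had 4, 14, 19, 37 and 33. Both rose, with slopes of 2.25 ± 0.35 (edgeR adjusted p = 6.75e-05) and 3.03 ± 0.50 (edgeR adjusted p = 1.13e-04) in the test of 31758 transcripts. The shorter form took 13.8, 10.4, 9.95, 17.2 and 16.9% of CXCL16 reads, and the exact 95% intervals of the pure libraries overlapped (3.89 to 31.7% and 11.9 to 22.9%). Isoform usage, which could be tested for CXCL16 alone among the members, did not pass (edgeR diffSpliceDGE, Simes adjusted p = 1, gene-level F adjusted p = 0.951), and 0.402% of 7455 genes did.

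Across all members, 24 of 41 annotated transcripts had a read and 5 passed the test, CXCL5-201, CXCL8-201, CXCL16-201, CXCL16-203 and IL1B-201. Besides these, only CXCL1-201, CXCL2-202 and CXCL3-201 were tested, and they did not pass. The remaining member transcripts had too few reads to be tested. All 5 that passed rose. Of all transcripts tested 33.6% passed and 17.5% rose. IL6 had no main form: IL6-204, IL6-206 and IL6-201 had 26, 23 and 22 of its 72 reads, and none of them could be tested. The 15 reads of CCL20 were likewise divided, with 6, 6 and 3 on CCL20-201, CCL20-202 and CCL20-203.

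By Euclidean distance of centred log2(CPM + 1) over the 5 libraries, among 11015 tested genes with at least 100 reads, C1orf210, EGFR and MT-TQ had the profiles nearest to that of CXCL16 (distances 0.284, 0.325 and 0.327). EGFR, the epidermal growth factor receptor, had 315, 1522, 2054, 2193 and 2582 reads. C1orf210 had 12, 64, 98, 92 and 109. Without the 100:0 library the slope of EGFR was 1.95 in place of 2.96, and that of MT-TQ, a mitochondrial transfer RNA gene, 1.84 in place of 2.91. For genes low in NCI-H1975, a perfect blend would also give a smaller log2 slope without 100:0.

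CCL20 (ENSG00000115009.13, chr2:227805739-227817564, plus strand), which attracts CCR6-bearing dendritic and lymphoid cells, was at the limit of detection. It had 2, 2, 1, 5 and 5 reads, and the ratio of the pure libraries, 3.16, had an interval of 0.52 to 33.1. A difference was not detectable at this depth.

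IL6 (ENSG00000136244.12, chr7:22725884-22732002, plus strand), the cytokine that acts through IL6R and gp130, was low in every library. It had 16, 12, 21, 11 and 12 reads, or 4.78, 2.82, 5.47, 3.90 and 4.53 CPM. No line stood above the other, and the mixed libraries were on both sides of the pure ones. The slope was 0.11 ± 0.58 (-1.15 to 1.38, edgeR adjusted p = 0.888), so a change of up to 1.38 on the log2 scale lies within its interval, and the ratio was 0.947 (0.41 to 2.13). The sign was negative with library totals (-0.30) and without the 75:25 library (-0.19). STEAP1B, with 55 reads, and IL6-AS1, with 5, overlap IL6 on the opposite strand.

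IL1B (ENSG00000125538.12, chr2:112829751-112836816, minus strand), the secreted form of interleukin-1, rose with HCC827. It had 11, 20, 30, 24 and 26 reads, or 3.29, 4.70, 7.81, 8.51 and 9.81 CPM. The level went up at each step, and the counting intervals of the pure libraries did not overlap. The ratio was 2.98 (1.42 to 6.69) and the slope 1.51 ± 0.45 (0.55 to 2.48, edgeR adjusted p = 0.0143). It was 1.10 with library totals (edgeR adjusted p = 0.0543) and 1.28 without the 100:0 library (edgeR adjusted p = 0.102). IL1B-201 took 99 of 111 reads. IL1A (ENSG00000115008.6, chr2:112773925-112784493, minus strand), the form active without cleavage, had 2, 2, 5, 5 and 7 reads, too few to test, and a ratio of 4.42 (0.84 to 43.6).

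Divided by transcript length, CXCL16 was the highest member in pure HCC827 RNA at 33.3 CPM per kb (28.8 to 38.3). It was above CXCL1 at 18.4 (14.0 to 23.9) beyond counting error. CXCL2 (13.5), CXCL8 (12.7), CXCL5 (9.14), IL1B (6.50), IL6 (3.76), CXCL3, CCL20 (2.34) and IL1A (1.31) followed, and each overlapped its neighbour in the order. In pure NCI-H1975 RNA the order of levels per kb was CXCL1 (11.5), CXCL2 (8.85), CXCL8 (6.75), IL6 (3.97), CXCL16 (3.92), IL1B (2.18), CXCL3 (1.66), CCL20 (0.743), CXCL5 (0.368) and IL1A (0.296), with every neighbouring pair overlapping. Whether reads grow with transcript length in these libraries was not tested, and the order depends on the division. In CPM not divided by length, CXCL16 was also highest in pure HCC827 (73.6). There CXCL5 (22.3) was level with CXCL1 (21.5) and CXCL8 (20.8), and in pure NCI-H1975 CXCL16 (8.67) stood above IL6 (4.78). The median tested gene stood between 19.2 and 20.8 CPM, not per kb, in the 5 libraries.

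In a linear mixture the reads of a mixed library follow from the pure ones. Over 10 members and 3 mixed libraries, the predicted count lay inside the exact Poisson interval of the observed count in 24 of 30 cases. CXCL16 was above its prediction in all 3, with 134 against 106, 191 against 158 and 215 against 162 reads. CXCL5 was above in 75:25 (41 against 26.5) and CXCL3 in 50:50 (21 against 9.96). CXCL2 was below in 75:25 (27 against 47.5). The interval covers the observed count and not the error of the prediction, which rests on as few as 3 reads for CXCL5. The same comparison was not made over all genes, so whether such departures are usual in these libraries was not tested.

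The lines held little RNA of the receptors for these chemokines. CXCR1, CXCR2 and CCR6 had 0 reads in all 5 libraries, which allows up to 1.13 CPM in 0:100, and CXCR6 had 1 read. IL6R, the IL-6 receptor, rose from 97 to 148 reads (29.0, 37.6, 39.8, 47.2 and 55.8 CPM, slope 0.87 ± 0.18, edgeR adjusted p = 0.0015; 0.46 with library totals, adjusted p = 0.0422). IL6ST, which encodes gp130, had a slope of -0.47 ± 0.24 (edgeR adjusted p = 0.131); with library totals it was -0.88 and passed (edgeR adjusted p = 0.00797).

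Both chains of the interleukin-1 receptor fell along the series in which IL1B rose. IL1R1, the signalling receptor, had 45, 59, 35, 21 and 16 reads, or 13.5, 13.9, 9.11, 7.45 and 6.04 CPM, and fell (slope -1.27 ± 0.36, edgeR adjusted p = 0.0115; without the 0:100 library -1.24, adjusted p = 0.0691; DESeq2 adjusted p = 0.0505). IL1RAP, its accessory chain, had 85, 80, 71, 26 and 6 reads, or 25.4, 18.8, 18.5, 9.22 and 2.26 CPM (slope -2.35 ± 0.45, edgeR adjusted p = 0.00103). SIGIRR, which dampens IL-1 signalling, had 71, 127, 163, 149 and 185 reads (slope 1.68 ± 0.18, edgeR adjusted p = 1.48e-05). Pure NCI-H1975 was thus high for both chains of the receptor and low for SIGIRR, and pure HCC827 the reverse.

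Among all 24 receptors and decoys, 18 had a read, 10 were tested, 3 rose and 4 fell, with a median slope of -0.19. LTBR, the lymphotoxin beta receptor, rose from 299 to 992 reads (slope 1.87), and SCNN1A on the opposite strand, which overlaps it, had 1709 reads. CD40, a receptor of the tumour necrosis factor family, fell from 77 reads in 100:0 to 3 in 0:100 (slope -3.16 ± 0.43, edgeR adjusted p = 8.79e-05).

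IL-1beta and CXCL16 both need a protease to be released. Of 13 genes of processing and shedding, 11 were tested, 3 rose and 4 fell, with a median slope of -0.11; with library totals 1 rose and 6 fell. CASP1, the caspase that cuts pro-IL-1beta, had 44, 32, 27, 6 and 2 reads (slope -3.18 ± 0.58, edgeR adjusted p = 6.65e-04). PYCARD, the adaptor that joins sensor and caspase in the inflammasome, had 52, 54, 29, 6 and 0, at least 13.7-fold lower in pure HCC827 when its 0 is set to 3 reads (edgeR adjusted p = 5.88e-04). NLRP1, a sensor, had 34, 28, 14, 11 and 0. GSDMD, the pore protein gasdermin D, went the other way with 115, 286, 334, 313 and 398 reads (ratio of the pure libraries 4.37, 3.54 to 5.42, edgeR adjusted p = 7.15e-06). ADAM10 fell from 199 to 76 reads (slope -0.96 ± 0.18, edgeR adjusted p = 7.73e-04), and ADAM17 had a slope of -0.11 ± 0.24 (edgeR adjusted p = 0.735).

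**Figure D3:**
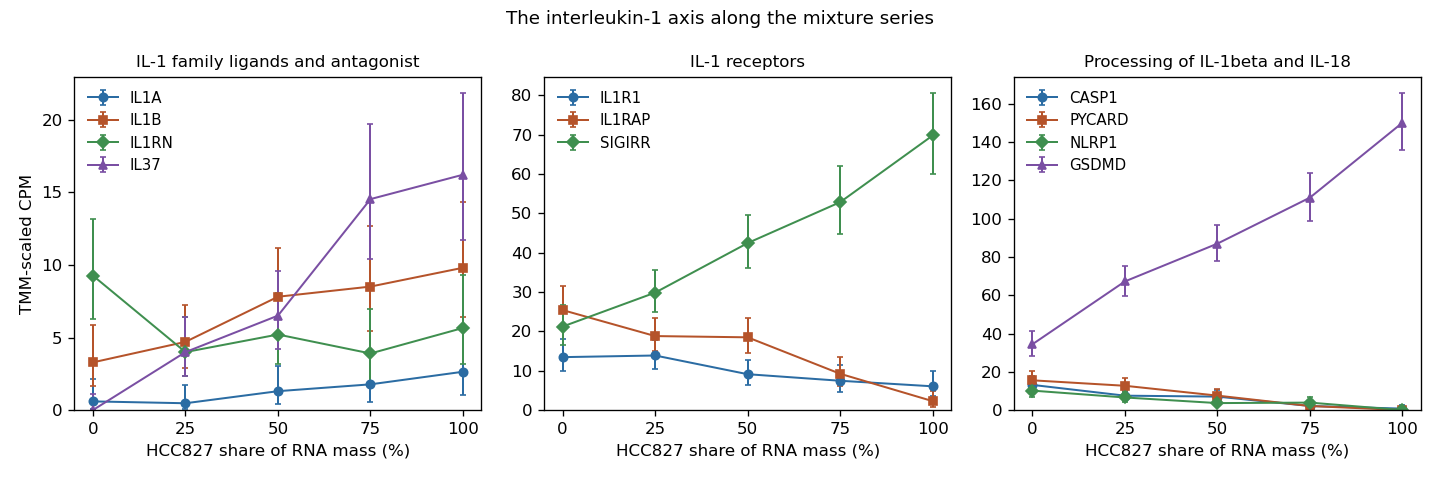
TMM-scaled CPM (vertical axes, linear, each panel with its own range) of IL-1 family ligands and the antagonist, IL-1 receptors, and genes of IL-1beta processing against the HCC827 share of RNA mass in percent, 1 library per point, with exact Poisson 95% intervals. IL1B climbs from 3.29 to 9.81 CPM while IL1RAP drops from 25.4 to 2.26 and PYCARD from 15.5 to 0.

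**Figure D4:**
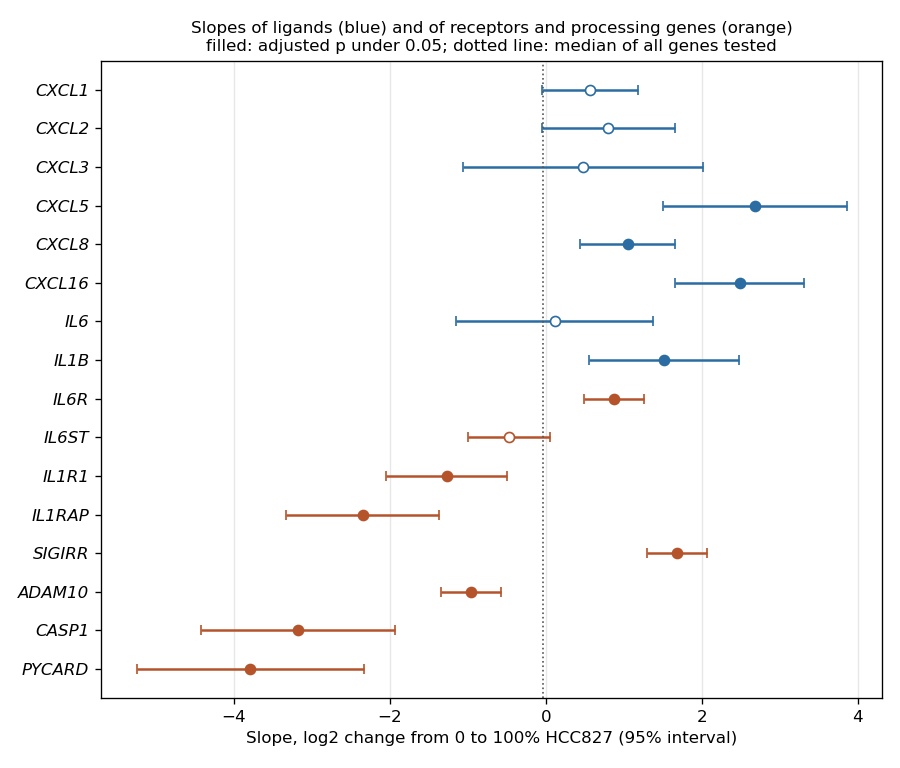
Slopes along the series (horizontal axis, log2, with 95% intervals). The 8 tested members are in blue and chosen receptors and processing genes in orange. The orange genes do not show the balance of their lists. Of 10 receptors and decoys tested, 3 rose and 4 fell. Of 11 genes of processing and shedding tested, 3 rose and 4 fell. Filled points passed at an adjusted p under 0.05, and the dotted line is the median of all genes tested, -0.03. All 8 members lie to the right of that line, with 4 filled (with library totals IL6 lies at -0.30 and the median at -0.45), while IL1RAP, CASP1 and PYCARD lie at -2.35, -3.18 and -3.79.

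Other cytokines split in both directions. Of 26 on the list, 23 had a read, 15 were tested, 4 rose and 3 fell, with a median slope of -0.12; with library totals 2 rose and 5 fell. IL37, an anti-inflammatory member of the IL-1 family, had 0, 17, 25, 41 and 43 reads, at least 18.1-fold higher in pure HCC827 when the 0 is set to 3 reads (slope 3.67 ± 0.67, edgeR adjusted p = 7.07e-04). IL11, a cytokine that signals through gp130 as IL6 does, had 84, 81, 45, 38 and 3 reads (slope -2.38 ± 0.52, edgeR adjusted p = 0.00256; -1.46 without the 0:100 library). IL1RN, the IL-1 receptor antagonist, had 31, 17, 20, 11 and 15 reads and did not pass (slope -0.73 ± 0.56, edgeR adjusted p = 0.302). MIF had a slope of 0.39 that was -0.03 with library totals and lost its call without the 0:100 library (0.27, edgeR adjusted p = 0.131), and a same-strand gene that overlaps it had 3441 reads. TNF, the classic inducer of these chemokines, had 0 reads in all 5 libraries.

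Few other chemokines were present. Of 31, 15 had a read and 4 were tested, CXCL6, CCL2, CCL28 and CX3CL1, of which 0 rose and 0 fell by edgeR, DESeq2 or limma-voom, with a median slope of -0.62. By edgeR, 1 of them, CCL28, had an unadjusted p under 0.05, and 1 fell with library totals. CX3CL1, like CXCL16 a chemokine anchored in the membrane, had 293, 379, 400, 289 and 271 reads and a slope of 0.26 ± 0.14 (edgeR adjusted p = 0.13).

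The NF-kB pathway, which many of these promoters are known to respond to, gave calls in both directions. Of 18 genes of signalling to NF-kB, all 18 were tested, 4 rose and 2 fell, with a median slope of -0.03 (1 and 4 with library totals). RELA, the p65 subunit, rose from 189 to 351 reads (slope 1.25 ± 0.15, edgeR adjusted p = 3.06e-05). CHUK, the kinase IKK-alpha, fell from 60 to 10 reads (slope -1.74 ± 0.38, edgeR adjusted p = 0.0024). IRAK4 had a slope of -1.31 that was lost without 100:0 (-1.48, edgeR adjusted p = 0.0849), without 0:100 (-0.66, edgeR adjusted p = 0.354) and with the DESeq2 test (adjusted p = 0.0696), and TWF1, which overlaps it on the opposite strand, had 1411 reads. TRAF2, at 0.71, lost its call with library totals (0.30) and without any of 4 libraries: 100:0 (0.93), 75:25 (0.65), 50:50 (0.71) or 0:100 (0.40). It was also lost with the DESeq2 test (adjusted p = 0.144), with no filter on low counts (edgeR adjusted p = 0.0846) and with at least 10 reads in every library (edgeR adjusted p = 0.0517).

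Of 14 inhibitors and feedback genes of NF-kB, 12 were tested, 5 rose and 2 fell, with a median slope of 0.61 (4 and 3 with library totals). NFKBIA, which encodes the inhibitor IkB-alpha and is itself an NF-kB target, had 309, 613, 603, 511 and 591 reads (slope 1.12 ± 0.15, edgeR adjusted p = 6.61e-05; 0.71 with library totals, adjusted p = 0.00132). NFKBIZ, a nuclear IkB protein that takes part in IL6 induction, had 42, 81, 99, 82 and 105 reads (slope 1.52 ± 0.23, edgeR adjusted p = 1.95e-04). BIRC3 rose from 12 to 49 reads (slope 1.66), though not past the threshold without 100:0 (0.95, edgeR adjusted p = 0.0848). TRAF3, a brake on the non-canonical pathway, fell from 88 to 25 reads (slope -1.05) and lost its call without 100:0 (-1.07, edgeR adjusted p = 0.0558) and without 0:100 (-0.56, edgeR adjusted p = 0.257).

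Of 10 genes of IL-6 signalling and the C/EBP factors, 9 were tested, 2 rose and 0 fell (as with DESeq2 and limma-voom; 1, CEBPB, fell at an unadjusted p under 0.05), with a median slope of 0.19 (1 and 2 with library totals). JAK1, the kinase bound to gp130, rose from 333 to 464 reads (slope 0.75 ± 0.12, edgeR adjusted p = 3.24e-04; 0.34 with library totals, adjusted p = 0.0331). CEBPD had a slope of 0.48, lost with library totals (0.07) and without 100:0 (0.29), 75:25 (0.47) or 25:75 (0.42). STAT3 had a slope of 0.29 ± 0.15 (edgeR adjusted p = 0.137).

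Messages of many inflammatory cytokines carry AU-rich elements that affect their lifetime, and such elements were not examined here. Of 10 genes that act on such messages, all 10 were tested, 4 rose and 1 fell, with a median slope of 0.26; with library totals 0 rose and 3 fell. ZFP36, which encodes tristetraprolin, had 11, 28, 24, 42 and 24 reads (slope 1.56); its call was lost with library totals (1.15) and without 100:0 (1.12), 75:25 (1.75) or 25:75 (1.13). ZFP36L2 had a slope of 0.88, lost with library totals (0.46) and without 100:0 (0.48). ZC3H12A, the ribonuclease Regnase-1, had a slope of 0.90, lost with library totals (0.49) and without 100:0 (0.45), 50:50 (0.90), 25:75 (0.89) or 0:100 (1.14), as well as with the DESeq2 test (adjusted p = 0.124) and with no filter on low counts (edgeR adjusted p = 0.0774). RC3H1, which encodes Roquin-1, fell (slope -1.19) but not past the threshold without 100:0 (-0.79) or 25:75 (-0.91) or with the DESeq2 test (adjusted p = 0.0777).

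Other inflammatory targets made a short list, and 22.3% of all genes tested fell. Of 6, 5 were tested, 0 rose and 3 fell by edgeR, DESeq2 and limma-voom, with a median slope of -1.40 (0 and 4 with library totals), and 1, PTGES, rose at an unadjusted edgeR p under 0.05. TNFAIP2, a tumour necrosis factor target, had 1550, 1598, 1101, 570 and 347 reads (slope -1.80 ± 0.14, edgeR adjusted p = 2.49e-06). PTGS2, the inducible cyclooxygenase, had 132, 195, 128, 66 and 37 (slope -1.45 ± 0.29, edgeR adjusted p = 0.00135). SOD2, the mitochondrial superoxide dismutase, had 432, 427, 324, 181 and 125 (slope -1.40 ± 0.14, edgeR adjusted p = 9.21e-06), and WTAP and ACAT2, which overlap it on the opposite strand, had 558 and 530 reads. Over all 9 lists of companion genes together, 94 of 152 genes were tested and 44 passed, 46.8% against 45.7% of all genes, with 25 rising and 19 falling.

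**Figure D5:**
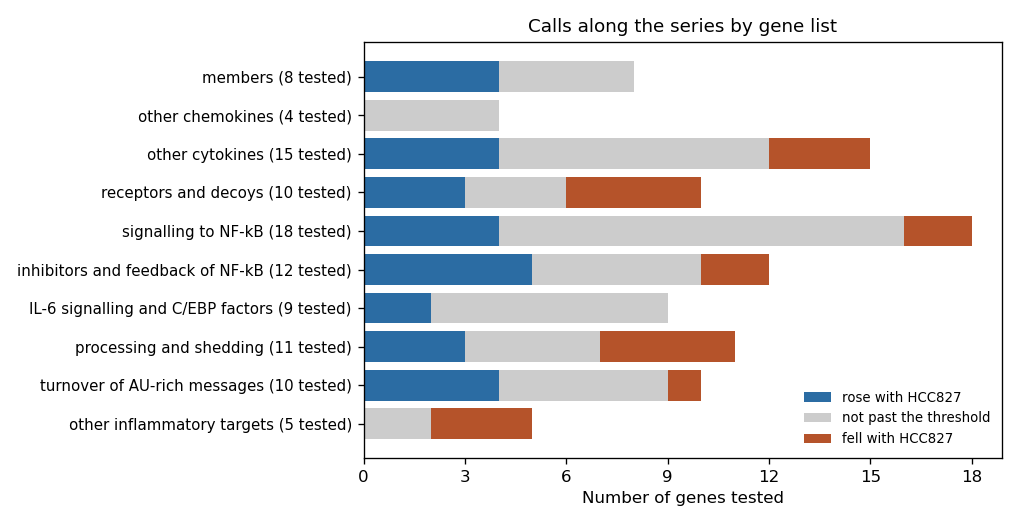
Number of genes tested in each list (horizontal axis) that rose with HCC827 (blue), did not pass the threshold (grey) or fell (orange) by the edgeR test at an adjusted p under 0.05. The members show 4 that rose and 0 that fell, receptors and decoys 3 and 4, and the other inflammatory targets 0 and 3. Of all genes tested, 23.5% rose and 22.3% fell.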

How the data were processed

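The authors deposited 1 table per library with an estimated count of reads per transcript, unscaled, as read from the tables; 2 values were not whole and were rounded. The submitters' processing notes name minimap2 2.24, Salmon 1.9.0 and GRCh38; the annotation release, the use of strand and the division of shared reads are not given in the sources used here. Of 227751 human transcripts, 224076 matched GENCODE v44 (98.6% of human reads), and 161 identifiers listed again were summed. Reads were summed per gene, with gene totals as library sizes.

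Features with at least 10 reads in at least 2 libraries were tested with edgeR 4.0.16 (limma 3.58.1, DESeq2 1.42.0 and R 4.3.3 for alternatives), with TMM scaling and Benjamini-Hochberg adjustment over all features at 0.05. The scripts were tested on simulated data. A count of 0 was set to 3 reads in ratios. Named genes were all members, their receptors, up to 4 called genes with the largest slope and at least 100 reads per list, and the 3 profiles nearest to CXCL16; IL1RN, NLRP1, ADAM17, CX3CL1, CCL2, CCL28, TNF, STAT3, CEBPB, PTGES and the marker genes were added after their values were seen. The members and lists were chosen with earlier results of these data known. Alternatives were other scalings, DESeq2, limma-voom, other filters, 2 libraries against 2, mitochondrial genes left out, and each library left out.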

Additional observations from a re-analysis of the deposited data

How the results depend on the processing

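The count of members past the threshold was 4, and it stayed 4 with DESeq2 size factors, the DESeq2 test, limma-voom, no filter, without mitochondrial genes and without each library in turn (4 to 4). Without 100:0 the 4 held CXCL2 (1.39) in place of IL1B (1.28). With at least 10 reads in every library it was 3 of 6, since CXCL3 and CXCL5 were not tested, and it was 5 features with CXCL1, CXCL2 and CXCL3 as 1. The slope of that sum was 0.64, and it did not pass with library totals (0.23), the DESeq2 test (0.66) or 2 libraries against 2 (0.46), nor without 100:0, 75:25 or 0:100 (0.55 to 0.75 over the libraries left out). With library totals the count of members was 2: the slope of CXCL8 was 0.64, that of IL1B 1.10, that of IL6 -0.30 and that of MIF -0.026, and 1 member in place of 3 ran in order. With 100:0 and 75:25 against 25:75 and 0:100, which uses fewer libraries, 1 member, 2291 genes and 15 companion genes passed (6172 genes and 44 companions over all 5), and the slopes of CXCL5, CXCL8 and IL1B were 1.95, 0.84 and 1.17. Leaving out each library gave 4068 (without 0:100) to 5859 genes, 31 to 41 companions (36 by the DESeq2 test) and 4 to 5 member transcripts. It gave slopes of 0.37 to 0.68 for CXCL1, 0.50 to 1.39 for CXCL2, -0.40 to 1.00 for CXCL3, 1.71 to 3.76 for CXCL5, 0.94 to 1.19 for CXCL8, 1.69 to 3.48 for CXCL16, -0.19 to 0.58 for IL6 and 1.28 to 1.89 for IL1B. Member transcripts past the threshold were 5, and 3 with at least 10 reads in every library, where CXCL5 was not tested. The CXCL5 ratio was 7.45 with a floor of 10 reads. Beyond these constructions the cause was not tested. No paired analysis was possible because each ratio has 1 library. Depth limits CCL20, IL1A, CXCL3 and IL6, which had 1 to 21 reads in a library.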

Other observations

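Shares of reads within families, chosen after the values were seen and given with exact Clopper-Pearson 95% intervals, describe the make-up of these transcripts in the 5 libraries. CXCL5 made up 2.22% (0.461 to 6.36) of the reads of CXCL1, CXCL2, CXCL3, CXCL5, CXCL6 and CXCL8 in pure NCI-H1975 RNA, 19.1, 18.1 and 27.9% in the mixed libraries, and 26.1% (20.5 to 32.3) in pure HCC827 RNA. The antagonist IL1RN made up 70.5% (54.8 to 83.2) of the reads of IL1A, IL1B and IL1RN in pure NCI-H1975, 43.6, 36.4 and 27.5% in the mixed libraries, and 31.2% (18.7 to 46.2) in pure HCC827. For both shares the intervals of the pure libraries did not overlap, and the 25:75 library was level with pure HCC827 within counting error. From pure NCI-H1975 to pure HCC827 the CXCL5 share had a slope of 22.6 percentage points (exact permutation p = 0.0667, adjusted 0.1) and the IL1RN share one of -37.8 (exact permutation p = 0.0333, adjusted 0.0999), in two-sided tests over all 120 orders of the libraries. The adjustment covers 3 shares, the other being that of CXCL16-203 (5.21, exact permutation p = 0.333, adjusted 0.333), and none passed. With only 120 orders, even a perfect ordering of the libraries could hardly bring a share under 0.05 after this adjustment. The adjustment also does not cover the choice of shares after their values were seen. No conclusion is therefore drawn from these p-values in either direction. Without the 100:0 library, an alternative chosen after seeing the data, the slopes were 12.4 and -18.4 percentage points, so the contrasts rest in large part on that library.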
